A study of Picea abies with 36 samples.

Results

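PaLRP1-like (MA_2299g0010), the Norway spruce gene that the study annotates as LATERAL ROOT PRIMORDIUM 1-like, was 1 of 70736 genes in the count table and 1 of 38732 genes that were tested. It was followed by its gene ID through all 36 RNA-seq libraries. The gene was chosen with its levels under auxin and under auxin with cytokinin already known. Every contrast that involves these treatments on 1 day is therefore given for PaLRP1-like as a description, with an error and without a test. Comparisons between days were not used for the choice and were tested, although they are built from these same levels. The IAA, BAP and BAP+IAA responses of a day are all read against the same 3 mock libraries.

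The libraries came from treated hypocotyl, the part of the seedling stem under the cotyledons, of 2-week-old wild-type Picea abies seedlings of the source labelled FP-518 TreO G7 Söregärde. Lanolin paste carried the auxin indole-3-acetic acid (IAA, 50 mM), the synthetic cytokinin 6-benzylaminopurine (BAP, 135 mM) or both hormones (BAP+IAA). Mock received neither hormone, and tissue was taken after 5, 10 or 15 days. Every one of the 12 combinations of treatment and day had 3 libraries. The labels and methods of the study give the BAP dose in mM and a figure legend gives it in µM, so the dose is uncertain. Each library pooled several plants. The study's methods describe hormones in ethanol mixed with lanolin, and do not say what the Mock was given. Total counts ranged from 13188942 to 23110495 per library, and from 14367932 to 23110495 in the 9 libraries treated with IAA alone. No marker that defines a hypocotyl was annotated by the study. The study's 4 cell type markers, for phloem, xylem and dividing cells, had counts in every library.

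Arabidopsis LRP1 belongs to the SHI/STYLISH family, plant transcription factors with a RING-like zinc finger. In Arabidopsis it is expressed early in lateral root primordia and responds to auxin, and related family members promote expression of YUCCA auxin biosynthesis genes. Auxin and cytokinin act against each other in many organs, lateral root initiation among them, and together they promote callus growth. The study placed PaLRP1-like among the hubs of a transcription factor network drawn from graft junctions, and its behaviour under the hormones themselves was examined here.

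IAA alone gave the highest levels of PaLRP1-like on each day, and adding BAP to IAA left the gene near the level of the mock. Levels are given in CPM, the read count of the gene divided by the TMM-adjusted library size and expressed on the scale of its name. On day 5 the Mock libraries had 1.27, 2.94 and 4.19 CPM, and the IAA libraries had 19.5, 24.5 and 17.7 CPM. The BAP libraries had 4.17, 2.05 and 4.87 CPM, and the BAP+IAA libraries had 2.62, 3.56 and 2.47 CPM. All 3 IAA libraries thus lay far above the other 9 libraries of the day, which overlapped one another. The mock values of day 5 rested on only 20 to 76 reads per library, and their coefficient of variation, 52.3%, was the highest of the 12 groups.

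On day 10 the gap was widest. The Mock libraries had 4.59, 7.22 and 5.85 CPM and the IAA libraries 43.9, 48.9 and 58.1 CPM. BAP alone gave 8.52, 4.49 and 8.68 CPM, and BAP+IAA gave 7.22, 5.96 and 5.81 CPM. Again only the IAA libraries stood apart. The 3 IAA libraries of this day held 651, 852 and 1044 reads of the gene, against 97, 102 and 100 reads in the BAP+IAA libraries.

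On day 15 the levels under IAA were 44.2, 29.2 and 33.7 CPM, whereas the means of all other treatments were higher than on the earlier days. The Mock libraries had 6.26, 7.41 and 12.2 CPM, the BAP libraries 13.1, 15.3 and 9.99 CPM and the BAP+IAA libraries 13.3, 11.8 and 10.1 CPM. The lowest IAA library, at 29.2 CPM, was still above the highest of the other 9 libraries, at 15.3 CPM.

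**Figure D1:**
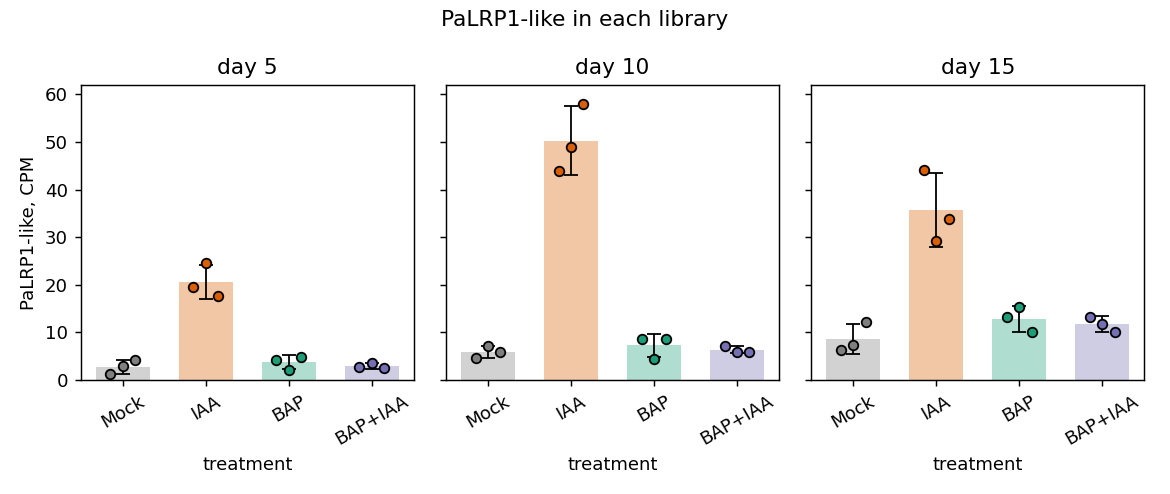
PaLRP1-like in each of the 36 libraries, in CPM, by treatment and day; points are libraries, bars are means of 3 libraries and error bars are 1 SD. The IAA libraries, from 17.7 to 58.1 CPM, sit above all others on each day, and the remaining 27 libraries lie between 1.27 and 15.3 CPM.

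Ordered from low to high, the 12 groups ran through the days first and through the treatments second, apart from IAA. The lowest group was Mock on day 5 (2.80 ± 1.46 CPM, SD, n = 3), followed by BAP+IAA (2.88 ± 0.589 CPM) and BAP (3.70 ± 1.47 CPM) of the same day. Next came Mock (5.89 ± 1.32 CPM), BAP+IAA (6.33 ± 0.773 CPM) and BAP (7.23 ± 2.37 CPM) on day 10. Mock (8.64 ± 3.17 CPM), BAP+IAA (11.7 ± 1.60 CPM) and BAP (12.8 ± 2.68 CPM) on day 15 followed. Within each of these days the order of the means was Mock, BAP+IAA, BAP, and the libraries of neighbouring groups overlapped at every step of this stretch. The step from BAP on day 5 to Mock on day 10, 2.19 CPM, exceeded the larger SD of both groups (1.47 CPM), and the other steps did not. The IAA groups were the top of the order, with 20.6 ± 3.52 CPM on day 5, 35.7 ± 7.69 CPM on day 15 and 50.3 ± 7.22 CPM on day 10. The step from BAP on day 15 to IAA on day 5 and the step from IAA on day 5 to IAA on day 15 exceeded the larger SD of both groups, without overlap of libraries. The libraries of IAA on day 15 and IAA on day 10 overlapped slightly.

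As log2 differences from the fitted model, the IAA response against mock was 2.86 (SE 0.33) on day 5, 3.09 (SE 0.32) on day 10 and 2.05 (SE 0.30) on day 15. In mean CPM the IAA groups were 7.35, 8.54 and 4.14 times their mocks. Under BAP+IAA the differences from mock were 0.03 (SE 0.36), 0.10 (SE 0.32) and 0.45 (SE 0.30). BAP+IAA was below IAA by log2 differences of -2.84 (SE 0.33), -2.99 (SE 0.31) and -1.60 (SE 0.30) on the 3 days. It differed from BAP alone by -0.35, -0.19 and -0.12, with SE of 0.35, 0.31 and 0.30. In CPM, the mean under IAA was 17.8, 44.4 and 27.1 above the mock mean. The mean under BAP+IAA was 0.08, 0.44 and 3.11 CPM above it, each less than the SD of the Mock libraries of the day. The BAP by IAA interaction, the departure of BAP+IAA from the sum of both single responses on the log2 scale, was -3.21 (SE 0.48), -3.28 (SE 0.44) and -2.18 (SE 0.42). As background, 11.3%, 10.1% and 9.86% of all genes tested were higher under IAA than mock on days 5, 10 and 15, and 3.46%, 9.96% and 10.5% were lower in BAP+IAA than in IAA. A gene was called higher or lower where edgeR's quasi-likelihood test gave an adjusted P under 0.05 and the log2 fold change exceeded 1 in size.

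**Figure D2:**
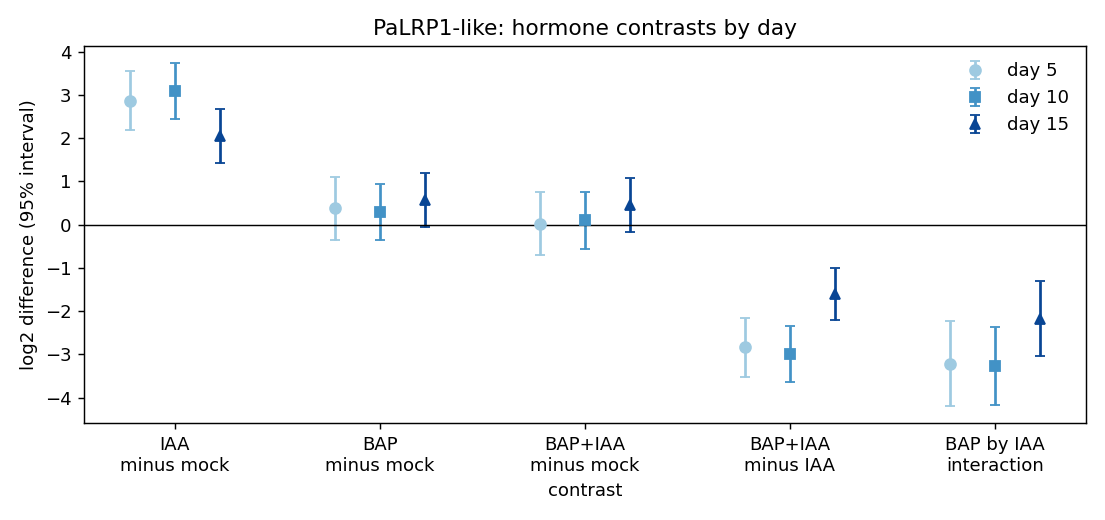
Log2 differences of PaLRP1-like for 5 contrasts on days 5, 10 and 15, with 95% intervals from the fitted model; the interaction sets BAP+IAA against the sum of the single responses. IAA minus mock lies at 2.05 to 3.09, BAP+IAA minus mock lies at 0.03 to 0.45, and the BAP+IAA minus IAA values mirror the former from -2.99 to -1.60.

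Whether BAP by itself changed PaLRP1-like could be tested, since that contrast was not used to choose the gene. BAP minus mock was 0.38 on the log2 scale on day 5 (95% interval -0.35 to 1.10, adjusted P = 0.488 in edgeR's quasi-likelihood test with Benjamini-Hochberg adjustment over all genes). It was 0.29 on day 10 (-0.36 to 0.94, adjusted P = 0.545) and 0.58 on day 15 (-0.05 to 1.20, adjusted P = 0.157). None of these passed, and libraries of both groups overlapped on each day. With single libraries left out, the adjusted P of day 15 went as low as 0.0417 in the same test. The value stayed below the fold threshold. A rise of 1.20 on the log2 scale, the largest upper limit, or a fall of 0.36, the largest lower limit, could not be told from no change at this depth. BAP called 8.85%, 12.9% and 15.2% of all genes tested on the 3 days.

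The level of PaLRP1-like also rose with time. Between day 5 and day 15 it rose by 1.60 (SE 0.33) on the log2 scale in Mock (adjusted P = 0.00962), by 1.80 (SE 0.32) under BAP (adjusted P = 0.000266) and by 2.03 (SE 0.33) under BAP+IAA (adjusted P = 6.22e-05), all in edgeR's quasi-likelihood test. In BAP and BAP+IAA the lowest library of day 15 was above the highest of day 5, and so it was in Mock, at 6.26 against 4.19 CPM. Under IAA the difference of 0.79 (SE 0.29) had an adjusted P of 0.0306 and did not reach the fold threshold. Across all genes, 1.09% were called between these days in Mock and 17.7% in the IAA libraries. The shares were 10.5% with BAP and 8.46% with BAP+IAA. The mock call was lost without Mock day 5 replicate 1 (1.25, adjusted P = 0.104) and without Mock day 15 replicate 3 (1.27, adjusted P = 0.0822). It was also lost when only the groups compared were fitted (1.61, adjusted P = 0.146).

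By day 10 the gene had risen under IAA, by 1.29 on the log2 scale (SE 0.29, adjusted P = 0.00120 in edgeR's test, with 12.9% of all genes called). The rise under BAP+IAA was 1.13 (SE 0.34, adjusted P = 0.0322, with 3.62% of all genes called). The latter call was lost when any of 5 of its 6 libraries was left out (all but BAP+IAA day 5 replicate 2), with values of 1.04 to 1.20 and adjusted P up to 0.129. The differences in Mock (1.06, SE 0.34, adjusted P = 0.269) and BAP (0.97, SE 0.33, adjusted P = 0.0981) were of similar size and did not pass. Their 95% intervals were 0.36 to 1.76 and 0.30 to 1.65, with unadjusted P of 0.00426 and 0.00641 in edgeR's test. The calls therefore do not show that the rise by day 10 differed between treatments. Only 0.0568% of all genes were called between day 5 and day 10 in Mock, and 1.59% under BAP.

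**Figure D3:**
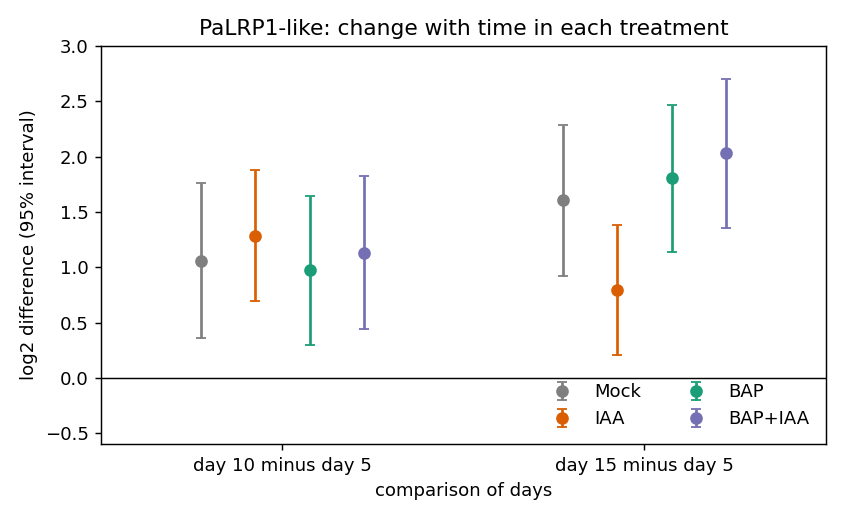
Log2 differences of PaLRP1-like from day 5 in each treatment, with 95% intervals from the fitted model. Values for day 10 lie close together, from 0.97 to 1.29, and on day 15 IAA, at 0.79, lies below Mock, BAP and BAP+IAA, at 1.60 to 2.03.

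The hormone responses themselves were compared between days, although the levels under IAA and BAP+IAA behind them were known when the gene was chosen. The IAA response changed by -0.81 (SE 0.44) from day 5 to day 15 (adjusted P = 0.234) and by 0.23 (SE 0.45) from day 5 to day 10 (adjusted P = 0.832), in edgeR's test of the difference. From day 10 to day 15 it changed by -1.04 (SE 0.42), with an unadjusted P of 0.0212 and an adjusted P of 0.400. The responses to BAP (0.20, SE 0.47) and to BAP+IAA (0.43, SE 0.47) did not pass between day 5 and day 15 either, with adjusted P of 0.919 and 0.704. The interaction was 1.04 (SE 0.63) nearer to 0 on day 15 than on day 5 (adjusted P = 0.417). None of these changes passed after adjustment over all genes. The tests rest on levels known when the gene was chosen, so no conclusion on a waning of the IAA response is drawn. The 95% interval of the change of the IAA response from day 5 to day 15 was -1.71 to 0.09. That of the change from day 10 was -1.90 to -0.17. Of all genes tested, 8.43% had a called change of the IAA response between day 5 and day 15, 0.0697% between day 10 and day 15, and 5.71% between day 5 and day 10. For the responses to BAP and to BAP+IAA and for the interaction these shares were 1.25%, 3.18% and 3.5%.

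The size of the response was set beside that of other genes induced by IAA. On all 3 days 1818 genes were higher under IAA than mock, which is 4.69% of the genes tested. PaLRP1-like ranked 1168 among them by its mean response (2.67 against a median of 3.43). By the drop from IAA to BAP+IAA it ranked 478, with a mean of -2.48 against a median of -0.90. The median of these genes under BAP+IAA was still 2.31 above mock, and that of PaLRP1-like was 0.19. Of the 1818 genes, 474 (26.1%) were lower in BAP+IAA than in IAA on all 3 days. In 246 of these (13.5% of the 1818), PaLRP1-like included, BAP+IAA was also not called higher than mock on any day, and 178 of the 246 were in addition not called under BAP alone. Within the 246 the drop of PaLRP1-like ranked 199. These ranks describe the gene by the values that chose it.

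Over the 3 days together, no other network hub of the study had the set of calls of PaLRP1-like. Only 0.635% of all genes tested were higher under IAA and lower in BAP+IAA than IAA on all days, and above mock under BAP+IAA on none. In 0.46% of all genes there was also no call under BAP. With shares this small, its absence from the other hubs says little about them. PaPAT1-like (MA_10426489g0020), a GRAS protein whose Arabidopsis relatives act in regeneration, gave log2 values of -0.14, 0.10 and 0.00 under IAA on the 3 days. Under BAP+IAA it rose on days 10 and 15, by 1.26 (SE 0.20) and 1.00 (SE 0.20), and it passed under neither hormone alone. The value of day 15 lay barely past the fold threshold. PaWIP4-like (MA_29238g0010), a zinc finger protein, rose under BAP+IAA on all days (1.39, 1.31 and 1.63) and under BAP on day 15 (1.11), but not under IAA (0.87, 0.39 and 0.57).

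PaMYB4-like (MA_316475g0010) also responded to IAA alone. It rose under IAA on days 10 and 15 (1.98, SE 0.34, and 1.48, SE 0.33), with -0.19 (SE 0.39) on day 5. PaMYB4-like was lower in BAP+IAA than in IAA on the later days (-1.41 and -1.06). Its BAP+IAA values against mock were -0.62, 0.57 and 0.42, none called. Under BAP alone it was called lower on day 5 (-1.97), with -0.56 and 0.13 later, not called. On days 10 and 15 these calls were those of PaLRP1-like. PaMYB123-like (MA_10048467g0010) rose under every hormone on every day, from 2.29 to 5.25, and was 1.17 higher in BAP+IAA than in IAA on day 5.

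The wider list of 64 transcription factors from the study's graft network module was selected by the authors on their grafts, which were not analysed here. Of its 61 tested members, 20, 21 and 20 were higher under IAA than mock on days 5, 10 and 15, and 10, 12 and 10 of these were lower in BAP+IAA than in IAA. These are 50%, 57.1% and 50% of the induced members, beside 18.2%, 46.5% and 44.5% of all induced genes, and both counts include PaLRP1-like. The list's median IAA response was 0.69, 0.39 and 0.56, beside medians of 0.01 over all genes. Higher under IAA on all 3 days, lower in BAP+IAA than in IAA on all 3 days and above mock under BAP+IAA on no day were 4 of the 61 (6.56%), beside 0.635% of all genes tested. The 4 include PaLRP1-like, which was chosen for this pattern.

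Those 4 were PaLRP1-like and 3 others, of which 2 were named after their values were seen. A gene annotated as the transcription factor bHLH49 (MA_28961g0020) had IAA responses of 2.75, 2.73 and 2.06 and BAP+IAA responses of 0.22, 0.25 and 0.20, which are close to those of PaLRP1-like on each day. A LOB domain-containing 15 gene (MA_9412105g0010) had 3.35, 4.00 and 2.78 under IAA and -0.79, -0.95 and -0.47 under BAP+IAA, and it was called lower under BAP on days 10 and 15 (-1.44 and -1.88). The remaining gene, annotated as MYB31 (MA_55123g0010), is described with the genes most alike. The response of bHLH49 (MA_28961g0020) to BAP alone was 0.04, 0.09 and 0.21, none called.

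LOB domain proteins are transcription factors, several of which act downstream of auxin in Arabidopsis lateral root formation. The study listed 17 such genes, also chosen on its graft libraries, and 15 were tested here. Several of the 15 also belong to the wider list of 64 transcription factors, so the counts of both lists share members. On each of the 3 days 9 of the 15 were higher under IAA, and 6, 6 and 5 of these 9 were lower in BAP+IAA than in IAA. Of all genes, 11.3%, 10.1% and 9.86% were higher under IAA, and 18.2%, 46.5% and 44.5% of those were lower in BAP+IAA. The list's median IAA response was 3.23, 3.32 and 2.78. Unlike PaLRP1-like, 9 of the 15 were higher than mock under BAP+IAA on each day, beside 10.2%, 10% and 11.4% of all genes. The list's medians under BAP+IAA were 1.69, 2.12 and 1.51. These 9 were not all the genes that were higher under IAA. LOB domain-containing 15 (MA_9412105g0010) was higher under IAA on all days and under BAP+IAA on none, and LOB domain-containing 42-like (MA_91369g0010) was the reverse.

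The 3 most abundant LOB domain genes differed in their calls. LOB domain-containing 37 (MA_122595g0010) had IAA responses of 0.99, 1.05 and 0.91, called only on day 10, and was lower in BAP+IAA than in IAA on all days (-1.17, -1.57 and -1.35). LOB domain-containing 40-like (MA_75731g0010) rose under IAA by 4.96, 3.62 and 2.97 and was still higher in BAP+IAA than in IAA on days 10 and 15 (1.76 and 2.53). LOB domain-containing 42-like (MA_91369g0010) had IAA responses of 0.47, -0.89 and -0.75, none called, and rose under BAP (1.35, 1.48 and 1.05).

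**Figure D4:**
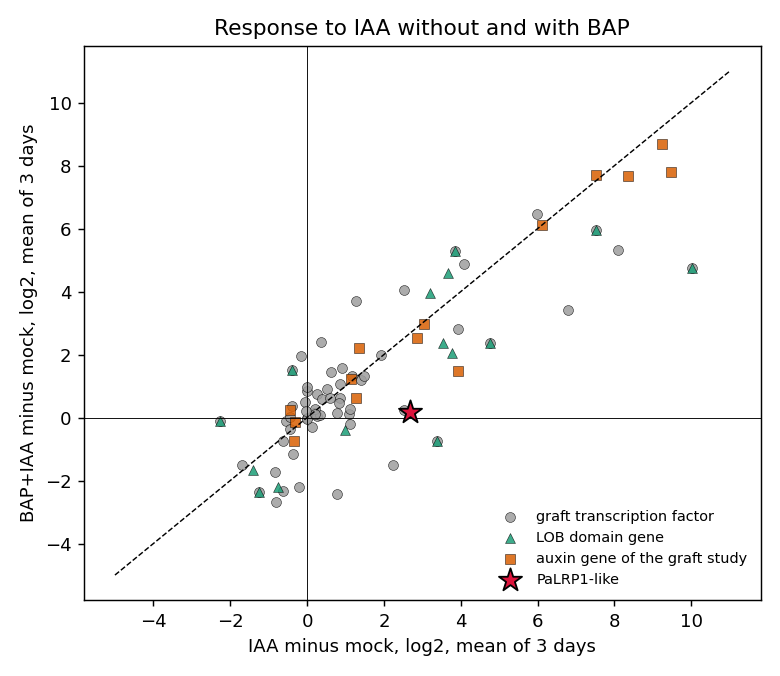
Mean log2 response over days 5, 10 and 15 to IAA (horizontal) and to BAP+IAA (vertical) for the study's graft transcription factors, LOB domain genes and auxin genes, with PaLRP1-like as a star; both axes use the same mock libraries, and the dashed line marks equal responses. PaLRP1-like lies at 2.67 and 0.19, far below the line, whereas most auxin genes with large IAA responses lie near it. Values of genes with hardly any read in Mock depend on the fit's prior count.

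Several genes of auxin metabolism and response were higher than mock both under IAA and under BAP+IAA. Of 14 auxin genes that the study listed from its grafts, 7, 9 and 10 were higher under IAA on days 5, 10 and 15, and 3, 2 and 1 of these were lower in BAP+IAA than in IAA. These are 42.9%, 22.2% and 10% of the induced members, above the 18.2% of all induced genes on day 5 and below the 46.5% and 44.5% on days 10 and 15, and 11.3%, 10.1% and 9.86% of all genes were higher under IAA. The list's median response was 2.15, 4.09 and 3.60 under IAA and 1.82, 2.42 and 2.48 under BAP+IAA, beside medians over all genes between 0.00 and 0.02. At most 1 gene in each of these 3 lists had no read in the Mock libraries of a day, and setting it to the bound that 3 reads per Mock group allow left every median as given. An auxin-amido synthetase (MA_10434772g0010), of the enzymes that conjugate auxin to amino acids, had 3.82 to 8.93 CPM in the Mock libraries of day 5 and 700.2 to 863 CPM in the IAA libraries. In BAP+IAA it had 152 to 390 CPM on day 5, 481 to 579 CPM on day 10 and 467 to 515 CPM on day 15. Its BAP+IAA response was 5.39, 6.44 and 6.56 on the log2 scale, where PaLRP1-like had 0.03 to 0.45 in the same libraries. The auxin-induced cell wall gene MA_10433117g0010 kept part of its response, with 3.86, 4.59 and 3.37 under IAA and 1.35, 1.61 and 1.48 under BAP+IAA. The auxin-induced gene MA_14786g0010 was not called under IAA (-0.68, -0.42 and 0.10).

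A second auxin list of 21 genes, of which 20 were tested, was assembled by the study because its genes changed under IAA in these libraries, so its direction is not independent evidence. It held 14, 18 and 16 genes higher under IAA, of which 4, 6 and 6 were lower in BAP+IAA than in IAA. These are 28.6%, 33.3% and 37.5%, beside 18.2%, 46.5% and 44.5% of all induced genes. Its most abundant members were IAA13-like (MA_18755g0010), an Aux/IAA repressor of auxin signalling, the auxin-amido synthetase MA_16777g0010 and IAA26-like (MA_18664g0010). IAA13-like rose under IAA (1.59, 1.34 and 1.29) and under BAP+IAA (1.11, 1.05 and 1.49) alike. MA_16777g0010 rose by 5.58, 5.77 and 4.75 under IAA and by 2.93, 2.09 and 1.94 under BAP+IAA. IAA26-like gave 0.36, 1.08 and 1.11 under IAA and fell under BAP+IAA (-1.82, -1.93 and -1.31).

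YUCCA5 (MA_10427998g0010), of the flavin monooxygenase family that makes auxin, had a set of calls unlike that of PaLRP1-like. Its mean levels under IAA were 13.95, 7.48 and 3.15 CPM on days 5, 10 and 15, with IAA responses of 1.43 (called), 0.71 and -0.17. Under BAP+IAA it had 7.71, 9.18 and 7.12 CPM, higher than mock on days 10 and 15 (1.01 and 1.00), the days on which PaLRP1-like stood at 0.10 and 0.45. Both calls of YUCCA5 lay barely past the fold threshold.

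The study also listed 6 genes of cytokinin metabolism and response for their change in these libraries, so their direction is not independent evidence, and 5 of them were tested. All 5 were higher under IAA on days 5 and 10 and 3 on day 15, and 1, 4 and 3 of these were lower in BAP+IAA than in IAA, with 1 of 5 (20%) on day 5 beside 18.2% of all induced genes. The corresponding shares of all induced genes were 46.5% on day 10 and 44.5% on day 15, and 11.3%, 10.1% and 9.86% of all genes were higher under IAA. Cytokinin dehydrogenase 7 (MA_10432877g0010) had no read in the Mock libraries of day 10, 48.3 to 59.6 CPM under IAA and 0.29 to 1.79 CPM in BAP+IAA. Cytokinin dehydrogenase 1 (MA_197101g0010) had 0 to 0.14 CPM, 35.99 to 42.5 CPM and 0.53 to 0.76 CPM in the same groups. Both were lower in BAP+IAA than in IAA on days 10 and 15, and both were called higher than mock under BAP+IAA on all days. The zeatin O-glucosyltransferase MA_10435034g0010 rose under IAA on days 5 and 10 (1.41 and 1.44), with 0.27 on day 15, and did not pass between BAP+IAA and IAA on any day.

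Likeness to PaLRP1-like was measured as Pearson's r of log2 CPM over the 36 libraries, among 32343 genes with a mean of at least 1 CPM. Such values describe profiles that share the same libraries and depths. The 10 most alike genes had r from 0.889 to 0.912. They were MA_84752g0010 (0.912), MA_10435424g0020, annotated as an O-glucosyltransferase rumi homolog (0.898), MA_40991g0010 (0.896), MA_16731g0010, annotated as the cytochrome P450 CYP76AA26 (0.896), and MA_47198g0010 (0.895). Then came MA_828166g0010 (0.894), MYB31 (MA_55123g0010, 0.893), MA_10431727g0010, annotated as inositol oxygenase 1 (0.891), MA_959201g0010 (0.890) and MA_402760g0010 (0.889). The genes given by ID alone carry no name in the sources used here. The choice by likeness fixes their general pattern, and all 10 were called higher under IAA and lower in BAP+IAA than IAA on all 3 days.

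The alike genes still differed from PaLRP1-like in detail. Within groups, where treatment and day are removed, r with PaLRP1-like was only 0.16 to 0.57. MYB31 (MA_55123g0010) was highest in this measure (0.57). It had 4.85 to 5.95 CPM under IAA on day 5, and its BAP+IAA libraries of that day, at 0.06 to 0.26 CPM, were below the Mock libraries, at 0.32 to 1.76 CPM. It was called lower than mock under BAP+IAA on days 5 and 15 (-2.46 and -1.39).

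Inositol oxygenase 1 (MA_10431727g0010), of the enzymes that open the ring of myo-inositol, had a mean of 585 CPM under IAA on day 10 and 66.5 CPM in BAP+IAA, beside 63.7 CPM in Mock. The P450 MA_16731g0010 had 130 CPM, 10.6 CPM and 11.9 CPM in the same groups. Of the 10 genes, 6 were called under BAP alone on some day, none of them on day 5, and PaLRP1-like was not called. BAP called 8.85%, 12.9% and 15.2% of all genes on days 5, 10 and 15. The share of all genes called on any day was not computed, so the count has no background. MA_84752g0010, the most alike by r, was called higher than mock under BAP+IAA on days 10 and 15 (1.84 and 2.55) and under BAP on day 15 (1.84).

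**Figure D5:**
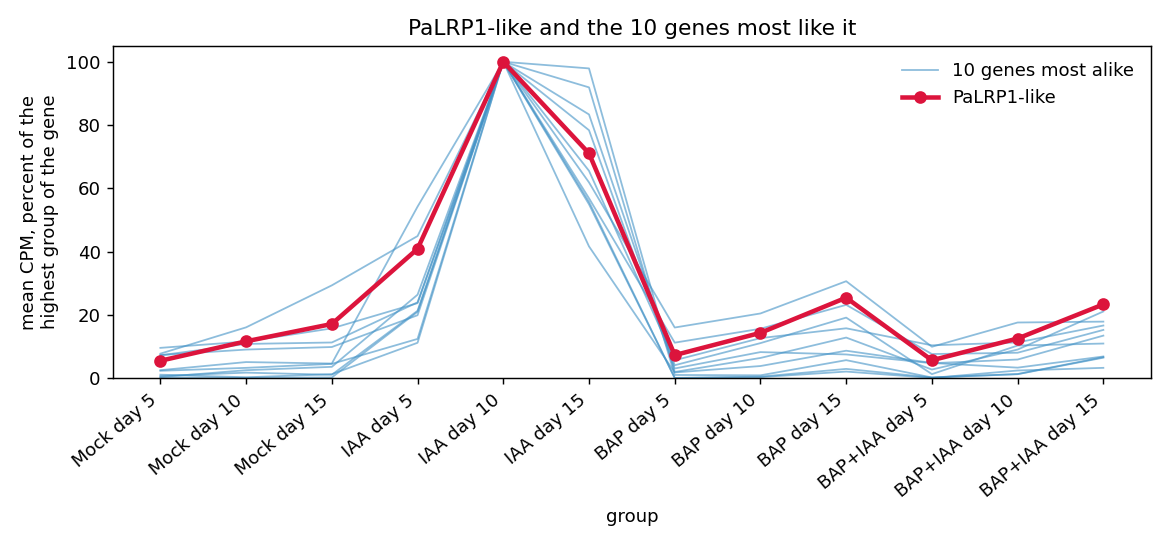
Group means of PaLRP1-like and of the 10 genes most like it, each as a percentage of its own highest group; lines join the 12 groups by treatment and day. All 11 genes peak under IAA on day 10, and their IAA levels on days 5 and 15 vary more among them than their levels in the other treatments.

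The genes with the most opposite profiles were MA_99523g0010 (r = -0.889), MA_168343g0010 (r = -0.867) and MA_16518g0010 (r = -0.863). Their IAA responses lay between -2.12 and -0.53 and their BAP+IAA responses between -0.95 and 0.48. None of the 3 was called under BAP or BAP+IAA on any day.

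Markers of cell types were read beside these results, since in bulk tissue more RNA per cell and more cells of a type cannot be told apart. The summed level of the 4 markers was 138 to 147 CPM in IAA and 140.0 to 153 CPM in BAP+IAA on day 5, against 104 to 118 CPM in Mock. On day 10 it was 124 to 151 CPM in IAA, 115 to 140 CPM in BAP+IAA and 118 to 135 CPM in Mock. On day 15 it was 97.4 to 111 CPM in IAA, 85.96 to 93.3 CPM in BAP+IAA and 135 to 144 CPM in Mock. No marker was at 0 in any library. The sum came mostly from PaCDKB2;2-like and PaVND4-like, with means over all libraries of 83.7 and 34.2 CPM. PaAPL-like had 3.03 CPM and PaPRX66-like 3.10 CPM. The sum therefore does not measure the share of any cell type.

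PaCDKB2;2-like (MA_920994g0010), a marker of dividing cells, had 0.62, 0.57 and 0.19 under IAA and 0.72, 0.75 and 0.35 under BAP+IAA, none past the fold threshold, and the phloem marker PaAPL-like (MA_201937g0010) was not called in these contrasts. The xylem markers moved, with PaPRX66-like (MA_10431507g0020) at 0.87, 4.83 and 3.91 under IAA and 1.35, 5.33 and 4.34 under BAP+IAA. PaVND4-like (MA_6777g0010) gave -0.16, -0.58 and -1.25 under IAA and -0.44, -2.01 and -3.15 under BAP+IAA. Between BAP+IAA and IAA, PaVND4-like was called lower on days 10 and 15 (-1.43 and -1.90, with -0.28 on day 5), the direction of PaLRP1-like. The other 3 markers were not called there, with 0.10 to 0.18 for PaCDKB2;2-like (MA_920994g0010), 0.43 to 0.50 for PaPRX66-like (MA_10431507g0020) and -0.43 to 0.82 for PaAPL-like (MA_201937g0010). The part of cell composition in the levels of PaLRP1-like was not tested.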

How the data were processed

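RNA-seq was performed on 36 hypocotyl libraries, 3 for each of 4 treatments on each of 3 days, grouped by the sample titles. Per the study's methods, the authors removed ribosomal reads with SortMeRNA, trimmed with fastp, aligned to the first P. abies genome release with STAR and deposited raw gene counts made with HTSeq in reverse-strand mode. The treatment of reads with several alignments is not given in the sources used here, so near-identical genes are uncertain. Each column of the table matched 1 library by its label, and 0 columns were left over.

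Counts were analysed with edgeR 4.0.16 (R 4.3.3, limma 3.58.1). After filterByExpr on the 12 groups, 38732 genes were kept, and 17643 of the 70736 genes had no count at all. TMM factors lay between 0.952 and 1.07. The model had one mean per group (glmQLFit, robust option, 24 residual degrees of freedom), and the common biological coefficient of variation was 20.9%. Two-sided quasi-likelihood F-tests were adjusted by Benjamini-Hochberg over all genes, and a call needed an adjusted P under 0.05 and a log2 fold change beyond 1 in size. The SE is the absolute log2 fold change divided by the square root of F. The labels do not say how plants were assigned to replicates beyond pooling, so P-values measure the spread between these libraries. The steps were tested on simulated data.

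The gene and the gene lists were chosen with earlier results of these data known. Genes named in the text were PaLRP1-like, the other 4 hubs, the 10 genes most alike and 3 most opposite by Pearson's r of log2 CPM (prior count 2), the 3 most abundant genes of each LOB, auxin and cytokinin list, YUCCA5 and the 4 cell type markers; any other is marked as named after its values were seen. Alternatives were RLE size factors, DESeq2, a block for the replicate number, no filter on low counts, leaving out each library, fitting only the groups compared, an adjusted P below 0.01, no fold threshold for list counts, and other measures of likeness. A genome annotation and sequences were not used here, so coordinates, length and GC content were not analysed here.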

Additional observations from a re-analysis of the deposited data

Results flagged for a closer look

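The rule that compares effects between days picked out no response of PaLRP1-like. The 10 genes most alike and the 3 most opposite were left out of this list, and their changes between days are not reported here. Among the other genes named beside PaLRP1-like, the rule picked out responses of 8. The test was edgeR's quasi-likelihood test of the difference with adjustment over all genes. All values are changes of a log2 response.

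PaMYB4-like (MA_316475g0010) had an IAA response that was 2.17 higher on day 10 and 1.67 higher on day 15 than on day 5, and its BAP by IAA interaction changed by -2.73 from day 5 to day 15. LOB domain-containing 42-like (MA_91369g0010) had an IAA response that changed by -1.36 to day 10 and by -1.22 to day 15, and an interaction that changed by 1.44. The IAA response of LOB domain-containing 40-like (MA_75731g0010) changed by -1.99 from day 5 to day 15. That of the auxin-amido synthetase MA_10434772g0010 changed by -1.53 while its BAP response changed by 2.09. YUCCA5 (MA_10427998g0010) showed the same opposed changes, -1.60 for IAA and 1.61 for BAP. The IAA response of the auxin-induced cell wall gene MA_10433117g0010 changed by -1.22 from day 10 to day 15.

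Among the xylem markers, PaPRX66-like (MA_10431507g0020) had an IAA response that was 3.96 higher on day 10 and 3.04 higher on day 15 than on day 5. PaVND4-like (MA_6777g0010) changed by -1.09 under IAA and by -2.71 under BAP+IAA from day 5 to day 15. Groups of 3 libraries are too small for a check of single outlying libraries.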

How the results depend on the processing

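Under RLE size factors, DESeq2, no low-count filter and the replicate number as a block, each of the 17 tested contrasts of PaLRP1-like kept its direction and its side of the threshold, and the 18 untested ones moved by less than the spread between replicates. With an adjusted P below 0.01, the rise under BAP+IAA from day 5 to day 10 (1.13) no longer passed. With only the groups compared, the rise in Mock from day 5 to day 15 (1.61, adjusted P = 0.146) no longer passed.

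Leaving out single libraries moved the IAA response of day 5 between 2.51 and 3.30, the BAP+IAA response of day 5 between -0.33 and 0.46 and the interaction of day 5 between -3.66 and -2.87, with Mock day 5 replicate 3 at the far end each time. The rise in Mock to day 15 ranged from 1.25 to 2.04 and that under BAP+IAA to day 10 from 1.04 to 1.32. The uncalled change of the BAP response between day 5 and day 15 turned its sign without BAP day 5 replicate 2 and without Mock day 5 replicate 3 (range -0.24 to 0.55), as did that of the IAA response between day 5 and day 10 without Mock day 5 replicate 3 (range -0.20 to 0.60). The BAP response of day 15 reached at most 0.91, below the fold threshold. Its adjusted P went as low as 0.0417 in edgeR's quasi-likelihood test. The causes were not tested.

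Replicate numbers were shared between groups, but nothing in the labels ties them to a batch. Same-numbered libraries deviated together with r from -0.07 to 0.26 over 51 pairs, and 1 of 17 comparisons had all its pairs above 0.1, so the numbers were not taken as pairs. With the replicate block, the rise in Mock to day 15 was 1.60 (adjusted P = 0.01002), and the number of genes called there went from 422 to 717, that for Mock day 10 from 22 to 42 and that for BAP day 10 against day 5 from 614 to 1027. By number, 23 of 36 libraries correlated best with their own among the 3 numbers, so the unpaired model may leave a shared part unmodelled.

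RLE factors left all list counts within 1.5 times, and dropping the fold threshold moved 25 of 96 of them further. Of the 10 most alike genes, 5 stayed under Spearman's correlation, 3 over the 12 group means, 8 with a prior count of 0.5 and 10 with a minimum of 0.1 CPM. The low reads of PaLRP1-like in Mock on day 5, 20 to 76, limit the precision of every value read against that group.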
